A study of Homo sapiens with 8 samples.

Results

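The 9 genes described here encode surface receptors of monocytes, macrophages and granulocytes: CD14, ITGAM, ITGAX, CSF1R, CSF3R, CD33, CD163, TREM1 and CD86. They were chosen as a list of myeloid differentiation markers, and each was located by its transcription start, given to the nearest kb on GRCh37; CSF1R has 2 starts, so 10 starts were examined of 303618 windows of 10 kb in the genome. The mark measured was H3K27me3, the trimethylated lysine that the Polycomb complex PRC2 writes on histone H3. Broad domains of it lie over genes that are kept silent, and its loss from lineage genes is one way in which cells can open a differentiation programme. Some monocyte and granulocyte receptors come on late in myeloid maturation, and blasts of acute myeloid leukaemia carry such receptors unevenly.

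The cells were MOLM14, an established human acute myeloid leukaemia line with an internal tandem duplication of the receptor tyrosine kinase FLT3. All groups are this 1 line. The treated cells received AC220 (quizartinib, an inhibitor of FLT3) and the control cells its solvent DMSO, each for 24 h, and Drosophila S2 cells were added to both before lysis. For each treatment there were 2 immunoprecipitated libraries, AC220 1 and AC220 2 against DMSO 1 and DMSO 2; the 4 input samples were not analysed here. The labels do not tell whether both libraries of a treatment are from separate cultures, so exact p-values refer only to the variation among these libraries, possibly technical. No RNA was measured, so whether these receptors were expressed, or the label of the cells as blood cells, was not checked.

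Each library is represented by its deposited list of broad peaks. The lists hold positions and scores but no reads, so depth is unknown, and a covered length is no measure of how much mark a cell carried. The libraries numbered 2 covered 2.59 times (AC220) and 2.55 times (DMSO) the length of those numbered 1, and over the genome the covered length with AC220 relative to DMSO was -17.2% in number 1 and -15.9% in number 2. Since the numbers differ more than the treatments do, AC220 was set against DMSO within each number, beside the pooled means. The measure used is the covered share, the percentage of bases of a window that lie inside any peak of a library.

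Around most of the receptor starts there was no H3K27me3 peak with either treatment. Within 5 kb of the start, 8 of the 10 starts had no peak in any of the 4 libraries: those of CD14, ITGAM, ITGAX, CSF3R, CD33, CD163 and CD86 and the macrophage start of CSF1R. Peak-free windows are common in the genome: 58.8% of all 10 kb windows had no peak in any library, and 55.6% of those in 1 Mb blocks that held at least 1 peak, so a count of 8 in 10 does not set the receptor genes apart. No start lay inside a peak. The exceptions were TREM1 and the distal start of CSF1R, and both of them in libraries numbered 2 only.

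**Figure D1:**
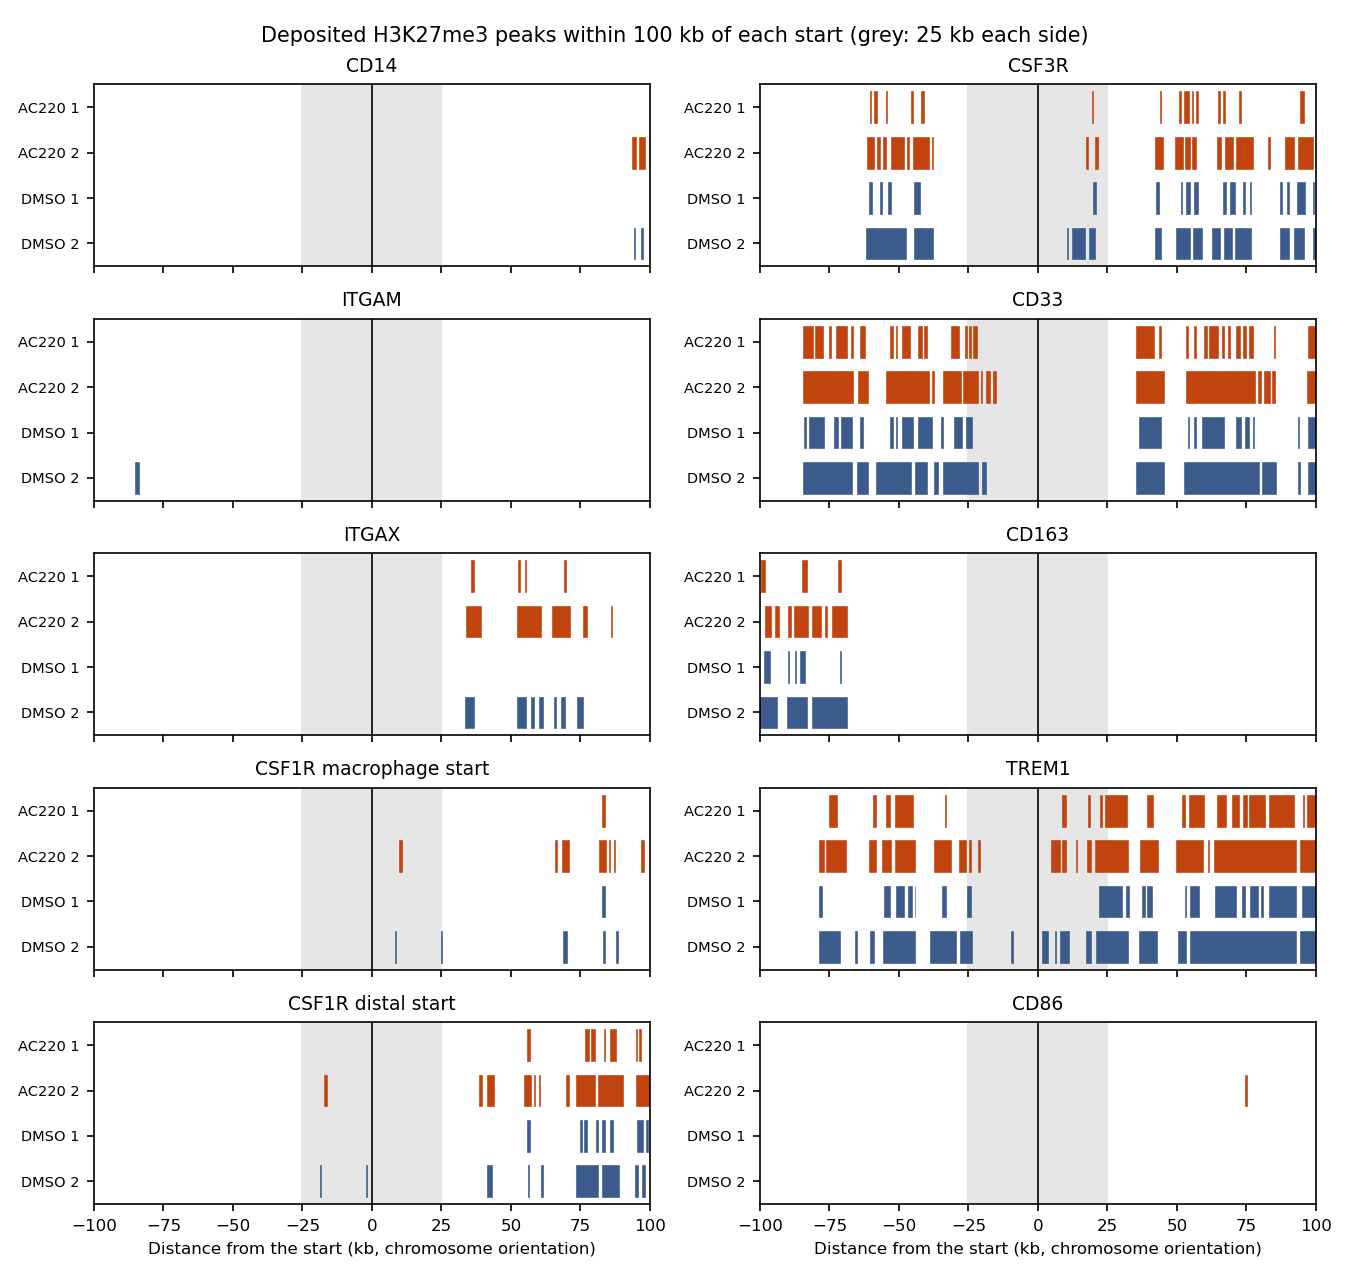
Deposited H3K27me3 peaks of the 4 libraries within 100 kb of each of the 10 starts, with distance from the start in kb on the horizontal axis and 1 row per library (AC220 in red above DMSO in blue; the grey band marks 25 kb on each side). CD14, ITGAM and CD86 are nearly empty, while CD33, TREM1 and CSF3R have peaks on both sides and a gap at the start.

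CD14, the co-receptor through which monocytes sense bacterial lipopolysaccharide, had the longest peak-free interval of the 10 starts. Its start (chromosome 5, kb 140013) lay 93.6 kb from the nearest peak of any library. The peak-free interval around it ran from 139598876 to 140106561 on chromosome 5 (GRCh37), a length of 508 kb over all 4 lists together. The covered share within 100 kb was 0% in AC220 1 and 1.77% in AC220 2, against 0% in DMSO 1 and 0.552% in DMSO 2.

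CD86, the costimulatory ligand that antigen-presenting cells show to T cells, lay in a like interval. It was 506 kb long (chromosome 3, 121342099 to 121848348), with the nearest peak 74.3 kb from the start. Within 100 kb only AC220 2 had a peak, with a covered share of 0.395%, and the other 3 libraries were at 0%. The starts of CD14 and CD86 thus had no peak within 50 kb under either treatment.

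The integrin genes ITGAM and ITGAX are neighbours on chromosome 16 and encode the alpha chains that pair with the beta-2 integrin chain to form complement receptors of phagocytes. Both starts, 95 kb apart, lay in 1 peak-free interval of 212 kb (31187094 to 31399552). ITGAM was 83.9 kb from the nearest peak and ITGAX 33.6 kb. The 100 kb on the higher-coordinate side of ITGAX held peaks, and their covered share was 2.89% in AC220 1 and 22.2% in AC220 2, against 0% in DMSO 1 and 13.4% in DMSO 2. AC220 was higher within each number there, but the libraries of the treatments overlapped, since DMSO 2 lay above AC220 1.

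CD163, the scavenger receptor by which macrophages take up haemoglobin bound to haptoglobin, had no peak within 50 kb either. Its peak-free interval was 268 kb long (chromosome 12, 7587402 to 7855583) and the nearest peak was 68.6 kb away, on the downstream side. In the 100 kb downstream the covered share was 4.27% in AC220 1 and 19.1% in AC220 2, against 4.98% in DMSO 1 and 26.4% in DMSO 2. The 100 kb upstream were at 0% in all 4 libraries.

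CSF1R encodes the receptor for macrophage colony-stimulating factor and has a macrophage start and a distal start 27 kb further upstream. The region of both was bare in the libraries numbered 1, whose nearest peaks to the distal start were 55.9 kb away with AC220 and with DMSO. In number 2 it held 1 peak of 1239 bp in AC220 2 (chromosome 5, 149475670 to 149476908), and 2 peaks of 385 bp and 415 bp in DMSO 2 (149474159 to 149474543 and 149490716 to 149491130). The last of these, 1.87 kb from the distal start, gave DMSO 2 a covered share of 4.15% within 5 kb, and the other 3 libraries were at 0%. The fold enrichment of a peak is the authors' value over the background of its own library; for that peak it was 1.89, at percentile 9.94 of the DMSO 2 list. Within 25 kb the macrophage start had covered shares of 0% and 2.48% with AC220 and 0% and 1.34% with DMSO, in numbers 1 and 2.

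**Figure D2:**
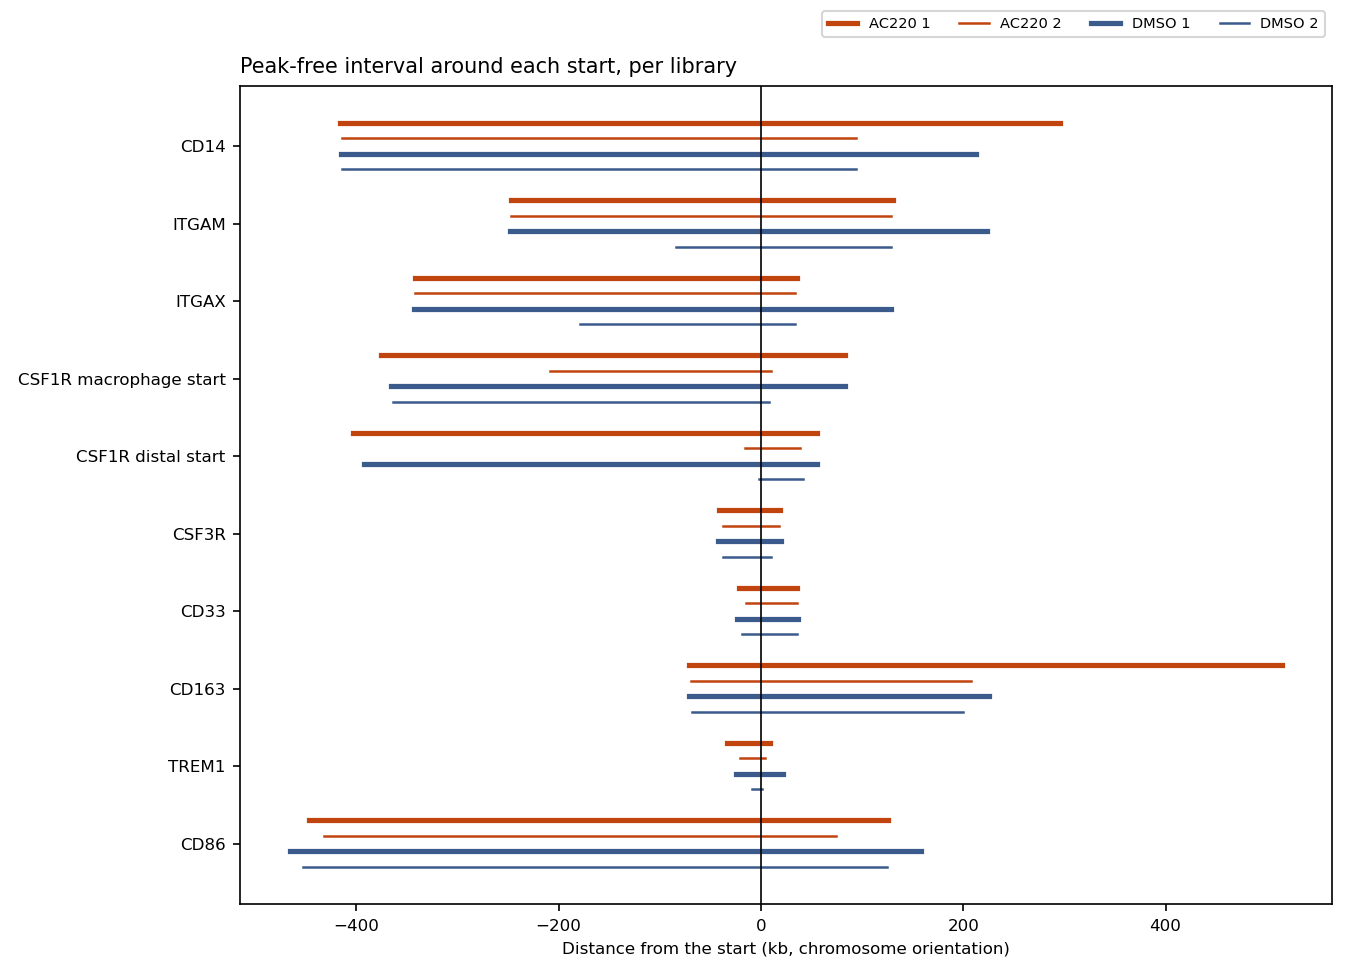
Peak-free interval around each start, per library: each line runs from the nearest peak on the lower-coordinate side to the nearest on the higher-coordinate side, in kb from the start (AC220 in red above DMSO in blue, number 1 thick and number 2 thin). The intervals of CD14 and CD86 pass 500 kb with all lists together, and that of TREM1 is 10.45 kb.

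TREM1, which amplifies inflammatory signals in neutrophils and monocytes, was the only start with peaks within 5 kb under both treatments. The covered share there was 0% in AC220 1 and 4.69% in AC220 2, against 0% in DMSO 1 and 22.6% in DMSO 2. Both libraries numbered 1 were empty, so the difference rests on number 2 alone, and the mean difference of -8.96 percentage points was 2.35 with the DMSO lists trimmed to the AC220 length or without DMSO 2. The means were 2.35% ± 3.32 with AC220 and 11.3% ± 16.0 with DMSO (SD, n = 2 each; exact permutation test, two-sided, p = 1). The DMSO 2 peak (chromosome 6, 41255462 to 41257721, 2260 bp) began 1.46 kb upstream of the start and had a fold of 1.80, at percentile 0.927 of that list. The AC220 2 peak (41258532 to 41261895, 3364 bp) began 4.53 kb upstream with a fold of 2.07. Within 10 kb the order depended on the number, with AC220 minus DMSO at 6.11 percentage points in number 1 and -4.78 in number 2.

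Further upstream of TREM1 a domain was present in every library. It spanned 20.5 to 32.5 kb from the start in AC220 2 (41274516 to 41286519, 12004 bp) and 24.0 to 32.2 kb in AC220 1 (41278036 to 41286184). In DMSO 2 it spanned 21.0 to 32.4 kb (41275012 to 41286392) and in DMSO 1 21.9 to 30.3 kb (41275945 to 41284276). Within 25 kb of the start, TREM1 had covered shares of 7.51% in AC220 1 and 24.0% in AC220 2, against 7.61% in DMSO 1 and 27.7% in DMSO 2. AC220 minus DMSO was -0.096 percentage points in number 1 and -3.71 in number 2. The means were 15.7% ± 11.6 and 17.6% ± 14.2 with AC220 and DMSO (SD, n = 2 each; exact permutation test, two-sided, p = 0.667). The difference was smaller than the spread between libraries, which includes the offset between the numbers. Such a test over 2 libraries against 2 cannot give a p below 0.333, and it does not use the pairing by number. Where both libraries numbered 2 lie above both numbered 1, as here, it cannot give a p below 0.667.

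CD33, a sialic acid-binding inhibitory receptor of myeloid cells and a target of antibody therapy in leukaemia, lay in a gap between marked stretches. The gap ran from 51712860 to 51763223 on chromosome 19 over all lists, 50.4 kb in length, from 15.1 kb upstream to 35.2 kb downstream of the start. Its downstream edge lay at nearly the same place in each library, 35.3 kb (AC220 1) and 35.2 kb (AC220 2) from the start with AC220, and 36.5 kb (DMSO 1) and 35.2 kb (DMSO 2) with DMSO. Beyond the gap the mark was plentiful, and within 100 kb the covered share was 23.8% in AC220 1 and 47.4% in AC220 2, against 26.4% in DMSO 1 and 50.03% in DMSO 2. That share was at or above 91.8% and 88.9% of all 200 kb windows in AC220 1 and AC220 2, and 90.7% and 86.3% in DMSO 1 and DMSO 2. There were 17781 windows of 200 kb covered over 40 to 60% in both libraries numbered 2, placed every 10 kb so that they overlap. Of these, 3.03% had a central 30 kb free of peaks in all 4 libraries, as CD33 did. This comparison was chosen after the CD33 gap had been seen, with its nearest peak 15.1 kb from the start. It therefore does not show that the gap is rare. TREM1 also met the 40 to 60% range, at 51.1% in AC220 2 and 54.5% in DMSO 2. Its nearest peak lay 1.46 kb from the start. A peak that began 97 kb downstream of the CD33 start had the highest fold within 100 kb in AC220 1, AC220 2 and DMSO 2. It had a fold of 3.35 in AC220 1 and 3.41 in AC220 2, against 3.89 in DMSO 1 and 3.60 in DMSO 2, at percentiles 97.9 and 99.5 of the AC220 lists and 99.1 and 99.5 of the DMSO lists. In DMSO 1 a peak of 237 bp upstream of the start (51677076 to 51677312) was higher, with a fold of 4.27.

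The edge of the upstream stretch reached into the 25 kb window of CD33. There the covered shares were 3.81% in AC220 1 and 12.3% in AC220 2, against 2.38% in DMSO 1 and 10.2% in DMSO 2. AC220 was thus higher by 1.43 and 2.05 percentage points in numbers 1 and 2. The means were 8.04% ± 5.97 with AC220 and 6.29% ± 5.54 with DMSO (SD, n = 2 each, exact permutation test, two-sided, p = 0.667). The difference was below these SDs, which include the offset between the numbers, and the test does not use the pairing by number. Within 100 kb the order was the other way, with AC220 minus DMSO at -2.64 and -2.59 percentage points in numbers 1 and 2.

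CSF3R, the receptor for granulocyte colony-stimulating factor, had its nearest peaks upstream, 19.4 kb (AC220 1) and 17.4 kb (AC220 2) away with AC220, and 19.9 kb (DMSO 1) and 10.3 kb (DMSO 2) with DMSO. The 25 kb downstream were free of peaks in all 4 libraries. Within 25 kb the covered share was 0.724% in AC220 1 and 3.04% in AC220 2, against 1.79% in DMSO 1 and 14.8% in DMSO 2. AC220 minus DMSO was -1.06 percentage points in number 1 and -11.8 in number 2. DMSO 2 stood apart from the other 3 libraries, and the pooled difference of -6.41 points was 0.097 without it; the means were 1.88% ± 1.64 with AC220 and 8.29% ± 9.20 with DMSO (SD, n = 2 each; exact permutation test, two-sided, p = 0.667). The widest of its DMSO 2 peaks there (chromosome 1, 36961417 to 36965780, 4364 bp) had a fold of 1.89, at percentile 9.95 of that list, and another (36967274 to 36969683, 2410 bp) had a fold of 2.44, at percentile 86.4. Within 100 kb the covered share of CSF3R was 5.93% in AC220 1 and 23.1% in AC220 2, against 9.28% in DMSO 1 and 29.0% in DMSO 2, again lower with AC220 within each number but with overlapping libraries.

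**Figure D3:**
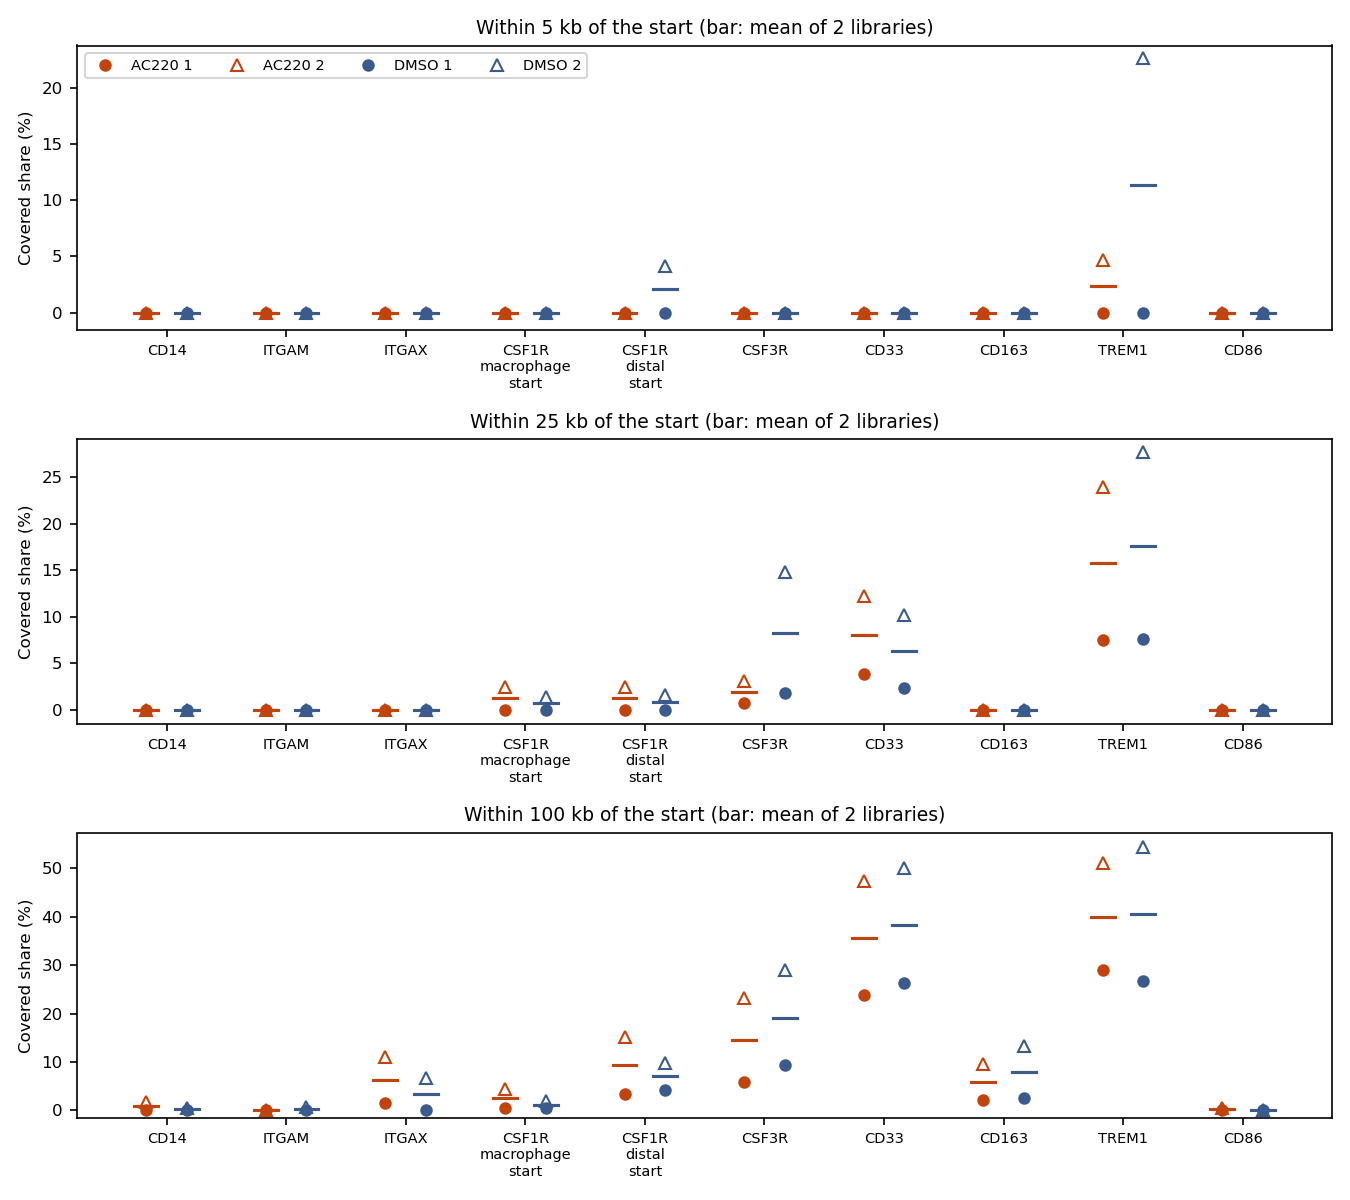
Covered share in percent for each of the 10 starts within 5, 25 and 100 kb (top to bottom), with AC220 left of DMSO, filled circles for number 1, open triangles for number 2 and a bar at the mean of the 2 libraries. Values above 0 within 5 kb appear for TREM1 and the distal CSF1R start, and by 100 kb TREM1 and CD33 reach 51.1% and 47.4% in AC220 2 and 54.5% and 50.03% in DMSO 2.

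Taking the receptor starts as a list, no shared direction was seen. Windows of neighbouring starts overlap, so the 10 starts make up 9 separate regions within 25 kb and 8 within 100 kb. Within 5 kb, 0 of 10 starts were lower with AC220 in both numbers and 0 were higher, where 10.9% and 3.45% of all 10 kb windows were. The libraries numbered 1 had no peak within 5 kb of any start, so no start could be called there and the count shows no direction. Within 25 kb 2 starts were lower in both numbers (TREM1 and CSF3R) and 1 was higher (CD33), against 23.1% and 5.54% of all 50 kb windows, so the counts are near the background. Of the other 7 starts, 5 had no peak in any library, where 41.5% of 50 kb windows had none (36.8% in 1 Mb blocks with a peak). Within 100 kb 3 starts were lower in both numbers (CSF3R, CD33 and CD163) and 2 higher (ITGAX and the macrophage start of CSF1R), against 37.4% and 9.02% of 200 kb windows. For that start of CSF1R, number 1 rests on 889 bp with AC220 against 863 bp with DMSO. The distal start of the same gene had no common direction. Every start had a peak in some library within 100 kb, while 21.7% of 200 kb windows had none. No start met a stricter call within 5 kb in either direction, in which all libraries of a treatment lie at least 25 percentage points from all of the other. None could meet it, since the highest covered share there was 22.6% (TREM1 in DMSO 2). Over the genome, 0.00725% of 10 kb windows were lower by that rule and 0.00132% higher.

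Over the joined windows of 25 kb on each side (477 kb in all), peaks covered 6.02 kb in AC220 1 and 20.9 kb in AC220 2, against 5.89 kb in DMSO 1 and 27.1 kb in DMSO 2. Relative to DMSO that is 2.34% in number 1 and -23.1% in number 2. Over the joined windows of 100 kb on each side (1722 kb), AC220 relative to DMSO was -5.01% in number 1 and -2.97% in number 2, both closer to 0 than the -17.2% and -15.9% of the whole genome; that difference from the genome was not tested. CSF3R and CD33 went against each other within 25 kb. Relative to DMSO, the covered share with AC220 differed by -59.5% and -79.4% for CSF3R in numbers 1 and 2, and by 60.3% and 20.1% for CD33. In number 1 this rests on 362 bp (AC220) against 893 bp (DMSO) for CSF3R, and 1906 bp against 1189 bp for CD33. Neither gene had a peak within 5 kb, and within 50 kb CD33 had no common direction. The median covered share over the 10 starts within 25 kb was 0% in AC220 1 and 1.24% in AC220 2, against 0% in DMSO 1 and 0.67% in DMSO 2, and over all 50 kb windows 0% and 1.65% against 0% and 2.98%.

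**Figure D4:**
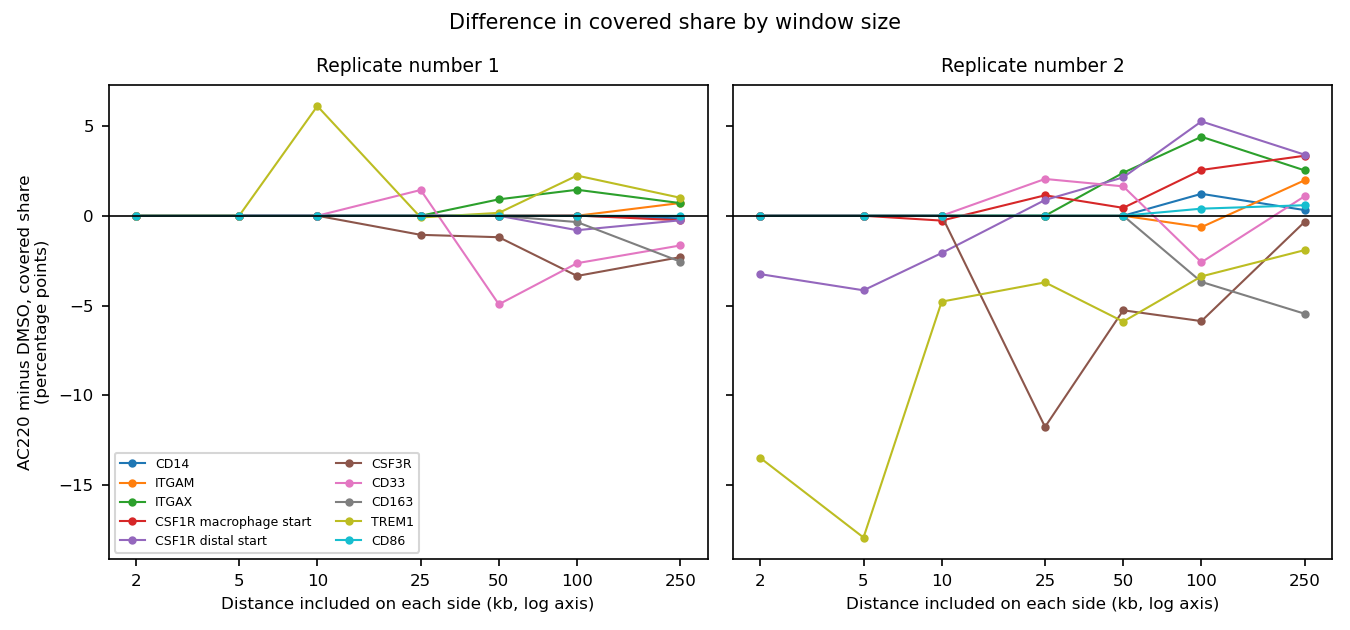
AC220 minus DMSO covered share in percentage points (vertical axis) for each start against the distance included on each side (2 to 250 kb, log axis), with number 1 left and number 2 right. TREM1 near the start and CSF3R at 25 kb lie below 0 in number 2, at -17.9 (5 kb) and -11.8 points, and at 0 and -1.06 points in number 1.

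The peaks close to the receptor genes were mostly of ordinary strength for their lists. Their windows of 25 kb on each side joined to 477 kb, and the number of peaks due to that length is not given here. Within 25 kb of any start lay 7 of the 104660 peaks of AC220 1, 14 of the 139812 of AC220 2, 4 of the 105063 of DMSO 1 and 14 of the 117708 of DMSO 2. Their median fold was 2.66 in AC220 1 and 2.07 in AC220 2, against 2.96 in DMSO 1 and 1.997 in DMSO 2, and the medians of the whole lists were 2.67 and 2.13 against 2.85 and 2.101. When peaks with a -log10 q of at least 2 were kept, all 10 starts were free of peaks within 5 kb and 7 of 10 within 25 kb. The share of all windows left free of peaks by that minimum is not given here, so these counts do not set the receptor genes apart.

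Some bases were covered in both libraries of one treatment and in none of the other. Within 100 kb of the start, CSF3R had 482 bp that only the pair of AC220 libraries covered. It had 3350 bp that only the pair of DMSO libraries covered, more than any other start at that distance. No genome-wide length of this kind is given here for comparison. Over the genome the DMSO lists covered more than the AC220 lists within each number. For TREM1 these lengths were 819 bp with AC220 and 973 bp with DMSO, and for CD33 229 bp with AC220 and 951 bp with DMSO. The length covered in all 4 libraries was 40264 bp for TREM1 and 34749 bp for CD33, far longer than these, but 3436 bp for CSF3R, close to its length with DMSO alone. ITGAX had 639 bp with AC220 alone and 0 bp with DMSO alone, and 0 bp in all 4 libraries. Both libraries numbered 2, and neither numbered 1, covered 23307 bp around TREM1, 26611 bp around CD33 and 19034 bp around CSF3R. Around CSF3R, AC220 1 and DMSO 2 together covered 2056 bp that the other two libraries did not.

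The promoter sequences show what kind of starts these are. In vertebrates, PRC2 is typically drawn to promoters dense in CpG dinucleotides that lack active transcription. RefSeq promoters (GRCh38.p14, 250 bases before to 50 after the start) were at hand for 8 of the 9 genes, 11 sequences in all; ITGAX had no entry. All 11 held fewer CpG than the median of 14 over 35116 promoters, with 2 to 9 each and a median of 3, and 43.6% of all promoters had no more than 9. TREM1 and CD14 are printed because they had the highest covered share near the start and the longest distance to a peak; capitals mark CpG. The TREM1 promoter (chr6:41286633-41286932, minus strand) has 2 CpG and that of CD14 (chr5:140633126-140633425, minus strand) has 8. TREM1, whose start lay nearest to a peak over all lists, shared the lowest number of 2 CpG with CD163 and ITGAM. Those genes had no peak within 50 kb of the start. Whether the CpG number bears on the mark at these starts was not tested.
TREM1: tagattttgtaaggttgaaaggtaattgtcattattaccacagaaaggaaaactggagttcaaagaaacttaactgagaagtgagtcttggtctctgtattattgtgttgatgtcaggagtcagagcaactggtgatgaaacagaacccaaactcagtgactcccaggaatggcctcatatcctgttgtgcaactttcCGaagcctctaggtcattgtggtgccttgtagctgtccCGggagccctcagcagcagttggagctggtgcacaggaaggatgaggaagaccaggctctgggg
CD14: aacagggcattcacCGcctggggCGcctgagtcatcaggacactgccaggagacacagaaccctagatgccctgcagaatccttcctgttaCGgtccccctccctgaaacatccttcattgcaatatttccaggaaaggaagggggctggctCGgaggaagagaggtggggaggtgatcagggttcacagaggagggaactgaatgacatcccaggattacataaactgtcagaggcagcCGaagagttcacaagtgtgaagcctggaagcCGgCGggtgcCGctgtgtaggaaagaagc

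**Figure D5:**
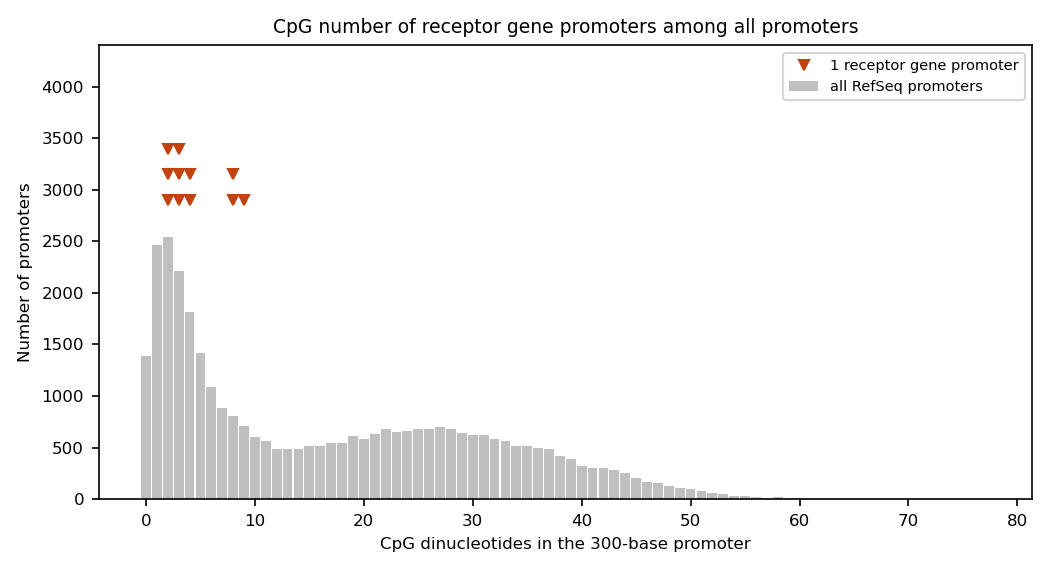
Number of CpG dinucleotides per 300-base RefSeq promoter (horizontal axis) against the number of promoters with it (grey bars, 35116 promoters), with 1 red triangle for each of the 11 receptor gene promoters, stacked at its CpG number. The triangles sit between 2 and 9, left of the median of 14.

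A second feature is the sequence GAGGAA, the core of sites for PU.1, the myeloid transcription factor that drives many of these receptors. The genes were chosen as myeloid markers, so such sites are not independent of the choice. Searched on both strands, GAGGAA was found in 8 of the 11 promoters and in 27.9% of all promoters. The 11 were not set against promoters of like CpG number, and the difference was not tested. Copies do not overlap each other. At least 3 copies stood in the promoters of CD33 and CD86 (the first of 2 entries) and at the macrophage start of CSF1R, and in 0.649% of all promoters. The macrophage start of CSF1R (chr5:150086505-150086804, minus strand) is shown with the copies in capitals. Its promoter held 3 of them, and the distal one of the same gene none; a match is a description of the letters and not of binding.
CSF1R macrophage start: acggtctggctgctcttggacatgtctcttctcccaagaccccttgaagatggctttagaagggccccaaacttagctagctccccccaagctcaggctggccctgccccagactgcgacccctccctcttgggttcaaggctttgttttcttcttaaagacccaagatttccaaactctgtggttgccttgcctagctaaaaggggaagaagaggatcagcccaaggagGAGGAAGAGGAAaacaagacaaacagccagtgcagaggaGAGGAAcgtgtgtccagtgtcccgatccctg

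By RefSeq order on GRCh38.p14, TREM1 and CD33 stand beside members of their own gene families. Downstream of TREM1 come TREML4 and TREML2, and upstream of it NCR2, a receptor of natural killer cells, and then FOXP4, a forkhead transcription factor. CD33 lies between SIGLEC7, after SIGLEC9, and SIGLECL1, with IGLON5, a neural adhesion molecule, beyond SIGLECL1. Next upstream of CSF3R is GRIK3, a glutamate receptor subunit of neurons. Peaks were not placed on these genes, since the table is of another build.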

How the data were processed

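H3K27me3 chromatin immunoprecipitation and sequencing of MOLM14 cells was analysed through 4 deposited broad peak lists, 1 per library. Per the submitters' processing notes the tools included BWA 0.7.10-r789 and MACS2 2.1; their settings were not listed. The deposited columns give positions in bp, a score (10 times -log10 q), the authors' fold enrichment ratio, and -log10 of the p-value and q-value of each peak within its library. No label or header used here says which build was used, or whether peak calling drew on the inputs or on Drosophila reads; contigs and the peak ends on chromosome 1 lie within GRCh37.

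Starts came to the kb from a list made for these genes. Spacing agreed within 1 kb with RefSeq GRCh38.p14 where both starts of a pair were tabulated (ITGAM to ITGAX 95 and 95.2 kb; CSF1R starts 27 and 26.8 kb); the other starts were not checked. The genes and alternatives were chosen with earlier results of these data known, and all 9 genes are named.

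Covered shares were computed with Python 3.11.15 and numpy 2.4.6 after peaks of a library had been merged; the routine was tested on 2000 simulated windows, with 0 wrong lengths. Background windows tiled chromosomes 1 to 22 and X, assembly gaps included, with hg19 lengths from GenomeInfoDb 1.38.1. Exact permutation tests, two-sided, ran through all 6 ways to assign 4 libraries to 2 treatments, without regard to number. Windows of 100 and 250 kb, joined windows and the CD33 gap comparison were added after the data had been seen. Figures used matplotlib 3.10.9. Other genes of the pathway were not analysed here, since no annotation of the files' build was at hand.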

Additional observations from a re-analysis of the deposited data

How the results depend on the processing

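No start was lower or higher within 5 kb in both numbers under any list, width, shift or window setting tried. The libraries numbered 1 had no peak within 5 kb of any start, so filtering or trimming the lists could not change this. With no replicate block, comparing treatment means, 2 starts (TREM1 and the distal CSF1R start) were lower within 5 kb; leaving out a replicate number or a library gave 0 to 2 lower and 0 to 1 higher. Within 25 kb the counts of 2 lower and 1 higher moved. The number lower was 0 with peaks of -log10 q of at least 2 or 3, with all lists at equal length and with no replicate block where libraries must not overlap, and 1 with peaks of at least 1 kb, peaks joined over 3 kb, DMSO lists trimmed to AC220 length, starts moved up by 500 bp or a window of 50 kb. It was 0 with a difference of at least 5 points required. The number higher was 0 with either q minimum, with the 5 point minimum and with libraries not overlapping, 2 with DMSO lists trimmed or with windows of 100 or 250 kb, and 3 with no replicate block and means. Leaving out a replicate number or library gave 0 to 5 lower and 0 to 5 higher within 25 kb, since removing 1 library leaves the numbers unbalanced.

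The mean difference of TREM1 within 25 kb (-1.90 points) was 2.44 with DMSO lists trimmed and 1.196 with all lists at equal length, that of CSF3R stayed negative under both, at -1.42 and -0.531, and that of CD33 (1.74) was -1.65 with a window of 50 kb. The sign was opposite to the main one within 25 kb in 5 of 18 alternatives for TREM1, 6 of 18 for CD33 and 1 of 18 for CSF3R, and within 5 kb in 3 of 17 for TREM1 (2.35 with DMSO lists trimmed and without DMSO 2, 0.663 with a window of 10 kb). Replicate numbers deviated together (correlation 0.84 of number 2 minus number 1 between treatments over 50 kb windows with a peak), but with 2 pairs they share only a number. The libraries numbered 2 covered more of the genome with both treatments, so this correlation does not show that libraries of a number are linked. Depth is unknown, so an empty window shows that no peak was listed and not that the mark was absent.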
